A study of Danio rerio with 4 samples.

Results

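The csnk1a1 g3UTR and jag1b g3UTR libraries were compared directly with each other, over all genes and without the wild type. They held 20721 barcodes between them after filtering, 9293 and 11428, of 42951 in the 4 libraries of the series under the same limits. A barcode, which stands for 1 captured cell, was kept with at least 200 genes and at most 35000 UMIs (unique molecular identifiers, each counting 1 captured RNA molecule). Barcodes were then split by cdh5, which encodes the vascular endothelial cadherin of endothelial cell junctions. At least 1 cdh5 UMI was found in 7337 csnk1a1 g3UTR and 9559 jag1b g3UTR barcodes, and none in 1956 and 1869.

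Both groups were zebrafish embryos of the Tg(kdrl:GFP) zn1 line. In it green fluorescent protein is made under the promoter of kdrl, an endothelial receptor gene. Trunk tissue that contains the aorta-gonad-mesonephros (AGM) was dissected at 26 hours post fertilisation, and GFP-positive cells were sorted and loaded on a 10x Chromium instrument for 3′ counting. In the first group the miR-128 site in the 3′ untranslated region of csnk1a1 was targeted with a guide RNA and Cas9, and in the second the site in jag1b. The guides were given to one-cell embryos with Cas9 mRNA, so that a library can hold unedited and differently edited cells, and whether a raised line was used for these libraries was not stated in the sources used here. The labels name no change to miR-128 itself in either group. Each group was 1 library, so genotype, embryo pool and library cannot be told apart and no difference between them could be tested.

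MicroRNAs bind short sites in the 3′ untranslated regions of messenger RNAs and lower their stability or translation, and losing a site frees that transcript from it. Csnk1a1, casein kinase 1 alpha, phosphorylates beta-catenin within the destruction complex and so restrains canonical Wnt signalling. Jag1b is a ligand of Notch receptors. In the AGM, haemogenic endothelial cells of the dorsal aorta turn into blood stem and progenitor cells by the endothelial-to-haematopoietic transition (EHT), and both pathways are known to take part in the steps before it.

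The csnk1a1 g3UTR library was the deeper of the pair. Its median barcode held 7612 UMIs against 5622, and the shallower jag1b g3UTR library held more barcodes. A cdh5 UMI was present in 79.0% of csnk1a1 g3UTR barcodes (exact binomial 95% interval, 78.1 to 79.8) and in 83.6% of jag1b g3UTR barcodes (83.0 to 84.3). When each barcode was thinned to 2500 UMIs the shares were 74.9% and 83.3%. The kdrl transcript was found in 98.3% and 98.2% of the barcodes with cdh5, and in 39.2% and 46.8% of those without, a fraction that also held globin-rich, myeloid and muscle cells. The libraries shared 31 barcode sequences. All intervals here cover counting error only, and a share or level in a sum of cells cannot separate fewer cells of a type from less RNA per cell.

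Levels were set side by side as CPM, the UMIs of a gene over all barcodes of a fraction per 1000000 UMIs of that fraction. A gene was compared where both libraries together held at least 100 of its UMIs, and it was counted as different at 2-fold or more. The gene whose site was targeted in the first group had nearly the same CPM in both libraries, and lay above the median gene. In barcodes with cdh5, csnk1a1 stood at 355.8 CPM in its own library against 355.9 CPM in the other, a ratio of 0.9996 (95% interval, 0.981 to 1.02). In barcodes without cdh5 it was 198.9 and 199.9 CPM, a ratio of 0.995 (0.945 to 1.05). With each library scaled to its median gene the ratios were 1.101 and 1.13. A 3′ count does not read whether the site was edited.

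Jag1b was expressed at a much lower level and was measured less finely. With cdh5 it stood at 5.98 CPM (363 UMIs in 331 barcodes) in csnk1a1 g3UTR, against 6.50 CPM (371 UMIs in 332 barcodes) in jag1b g3UTR, a ratio of 1.09 towards the latter whose interval held 1 (0.94 to 1.26) and which turned to 1.014 towards csnk1a1 g3UTR when scaled to the median gene. Without cdh5 the values were 4.87 and 7.77 CPM, 1.60 times higher in jag1b g3UTR (1.18 to 2.16) from 88 and 97 UMIs. The miR-128 host genes r3hdm1 and arpp21, whose introns carry the microRNA, were both measured. R3hdm1 gave 15.5 and 16.8 CPM with cdh5, where the interval of the ratio held 1 (0.993 to 1.19), and 19.2 and 22.8 CPM without. Arpp21 gave 8.85 and 14.7 CPM, 1.67 times higher in jag1b g3UTR (1.49 to 1.86), and 17.7 and 28.0 CPM without cdh5.

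Over all genes the 2 libraries differed mostly in 1 direction. With cdh5, 15080 genes were compared, of which 104 (0.69%) were at least 2-fold higher in csnk1a1 g3UTR and 671 (4.45%) at least 2-fold higher in jag1b g3UTR, 5.14% in all. Without cdh5, 12001 genes were compared, and 85 (0.708%) and 422 (3.52%) passed, 4.22% in all. The median gene was lower in csnk1a1 g3UTR by -0.14 on the log2 scale with cdh5 and by -0.19 without. List members are therefore placed against these medians below, while the 2-fold calls use unscaled CPM unless stated. With each library scaled to its median gene instead, 169 and 478 genes passed with cdh5, and 129 and 202 without.

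Part of the calls were shared by both fractions. Of 11429 genes compared in each, 22 (0.192%) were 2-fold higher in csnk1a1 g3UTR in both fractions and 151 (1.32%) were 2-fold higher in jag1b g3UTR in both. Counting only genes compared in both fractions, the 22 were 46.8% of the 47 called with cdh5 and 37.3% of the 59 called without. The 151 were 36.0% of 419 and 40.8% of 370, so most calls in either fraction did not pass 2-fold in both. Most kept their direction: 41 of the 47 and 402 of the 419 called with cdh5 had the same sign without. Of the 59 and 370 called without cdh5, 51 and 360 had the same sign with it. Across these genes the log2 ratios of the fractions had a correlation of 0.72, a description only, since genes are not replicates and both fractions come from the same pair of libraries.

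**Figure D1:**
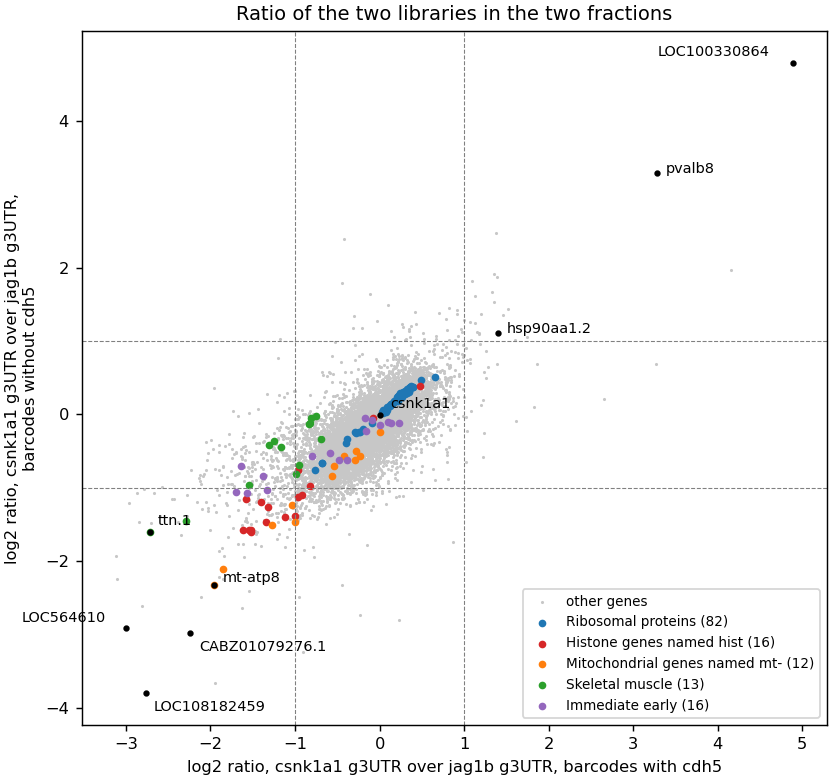
Log2 ratio of csnk1a1 g3UTR over jag1b g3UTR for each gene compared in both fractions, in barcodes with cdh5 (x axis) and without cdh5 (y axis); grey points are genes, coloured points are gene lists, and dashed lines mark 2-fold. Ribosomal protein genes lie mostly above 0 on both axes, while the histone and mitochondrial genes reach below -1 on both.

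Gene length ordered the ratios in both fractions. Genes were divided into 10 equal groups by the length of their RefSeq gene span, which was found for 86.6% of the genes compared with cdh5 and 91.5% of those without. With cdh5 the median log2 ratio was 0.16 in the shortest genes (up to 4.54 kb), -0.08 in the fifth group and -0.36 in the longest genes (from 96.9 kb). Without cdh5 the same 3 groups gave 0.09, -0.12 and -0.48. The median fell at every step from 1 group to the next, in both fractions, although the ranges of neighbouring groups overlapped. Calls varied with length less evenly. With cdh5, 5.74% of the shortest genes, 2.45% of the second group and 4.44% of the longest were 2-fold higher in jag1b g3UTR. Without cdh5 the same groups gave 5.46%, 1.28% and 6.46%. Calls higher in csnk1a1 g3UTR were most frequent in the shortest genes, 1.99% with cdh5 and 2.82% without. In the longest genes they were 0.0766% and 0.182%. The gene lists below are set against all genes and not against genes of like length. The part of length in their medians was not tested.

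The cytosolic ribosomal proteins, a family of short and very abundant transcripts, stood at the other side of the median gene. None of the 82 compared passed 2-fold, but 72 of 82 lay above the median gene in each fraction, with a list median of 0.25 with cdh5 and 0.26 without. With cdh5 they made up 32.8% of all csnk1a1 g3UTR UMIs against 28.9% in jag1b g3UTR, and 36.5% and 32.1% without. The median was 0.25 in arterial and 0.24 in other barcodes with cdh5, 0.22 in myeloid barcodes and 0.27 in muscle barcodes, as defined below.

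**Figure D2:**
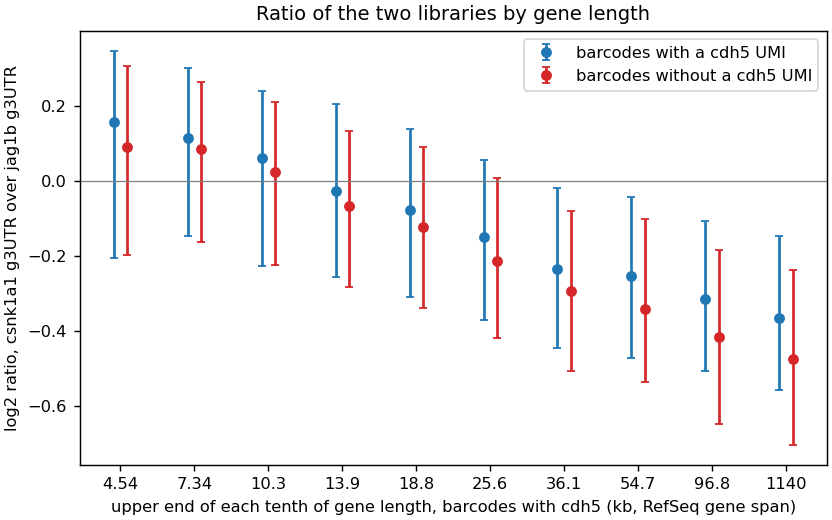
Median log2 ratio of csnk1a1 g3UTR over jag1b g3UTR (y axis; bars, middle 50% of genes) in 10 groups of gene length (x axis, labelled by the upper end of each group in kb), in barcodes with cdh5 (blue) and without (red). The medians run from 0.16 to -0.36 with cdh5 and from 0.09 to -0.48 without.

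Transcripts of the mitochondrial genome were higher in jag1b g3UTR, and by unequal amounts. Of 12 genes, which encode subunits of the respiratory chain and ATP synthase, 5 passed 2-fold in each fraction, all higher in jag1b g3UTR, against 4.45% and 3.52% of all genes, with list medians of -0.55 and -0.77. Mt-atp8 stood furthest out, at 18.3 and 71.3 CPM with cdh5, 3.90 times higher in jag1b g3UTR (3.65 to 4.17). Without cdh5 it was at 17.7 and 89.5 CPM, 5.04 times higher (4.45 to 5.73). Mt-nd4l followed at 24.2 and 87.7 CPM, and mt-nd3 at 105 and 254 CPM. By contrast, mt-cyb was level with cdh5, at 1702 and 1694 CPM, and mt-co1 differed 1.45 times (1.44 to 1.47). The other libraries of the series, made with an earlier Cell Ranger version, had mt-atp8 at 17.5 CPM in the wild type and 20.4 CPM in the miR-128 mutant with cdh5, close to the csnk1a1 g3UTR level.

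The summed mitochondrial level moved in the same direction. With cdh5 it was 9145 CPM in csnk1a1 g3UTR against 11873 CPM in jag1b g3UTR, and without cdh5 9077 and 13613 CPM. Median mitochondrial shares per barcode were low in both, 0.86% and 1.11% with cdh5, and leaving out the 4 and 5 barcodes above 20% left 102 and 668 genes past 2-fold. Its part in the gene differences was not tested.

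Of the lists with at least 3 genes compared, the histone genes had the lowest median ratio in both fractions. This list and that of variant histones below were added after seeing the data. The rank and the counts may thus partly reflect that choice and are a description only. Of 16 genes whose symbol begins with hist, 10 were at least 2-fold higher in jag1b g3UTR with cdh5 and 12 without, against 4.45% and 3.52% of all genes, with list medians of -1.22 and -1.23. Hist1h4l, a histone H4 gene, gave 126 and 314 CPM with cdh5, 2.50 times higher in jag1b g3UTR (2.43 to 2.56), and 189 and 454 CPM without. Hist2h3c, a histone H3 gene, gave 12.6 and 36.7 CPM, 2.91 times higher (2.68 to 3.17). The 2 that lay above the median gene were histh1l, at 260 and 274 CPM, and hist2h2l, which was 1.39 times higher in csnk1a1 g3UTR. The median was -1.34 in arterial barcodes and -1.25 in myeloid barcodes without cdh5. In muscle barcodes only 3 of these genes could be compared, none passed and their median was 0.41.

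Among the 151 genes higher in jag1b g3UTR in both fractions, 10 were of this family and 17 more lay within 5 genes of one along the RefSeq chromosomes. Of all 11429 genes compared, 16 and 50 did. Histone genes in these clusters are near copies of each other, so the assignment of reads among them is uncertain. Whether 3′ counting captured histone transcripts alike in both libraries was not tested, so these counts need not equal their RNA amounts.

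Variant histone genes, which are made outside S phase as well, did not follow. None of the 10 compared passed 2-fold in either fraction, and their medians were 0.23 with cdh5 and 0.31 without, above the median gene. H3f3d, for example, which encodes H3.3, gave 1376 and 1162 CPM with cdh5. Among cell-cycle genes, none of 17 S-phase and none of 17 G2/M genes passed 2-fold in either fraction. The S-phase median was -0.07 with cdh5 and -0.02 without, turning to 0.07 and 0.17 when each library was scaled to its median gene. The G2/M median was -0.09 with cdh5, turning to 0.05 with that scaling, and -0.35 without. Of the 17 G2/M genes, 7 lay below the median gene with cdh5 and 12 without, the side of the histone genes. In myeloid barcodes the G2/M median was -0.55, and 1 of 16 was higher in jag1b g3UTR, against 2.46% of all genes there. The S-phase median there was 0.26, and 1 of 15 was higher in csnk1a1 g3UTR, against 0.851%. Pcna, the sliding clamp of replication, gave 222 and 207 CPM with cdh5. Dut, which removes dUTP from the nucleotide pool, was 1.67 times higher in csnk1a1 g3UTR (1.60 to 1.75).

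**Figure D3:**
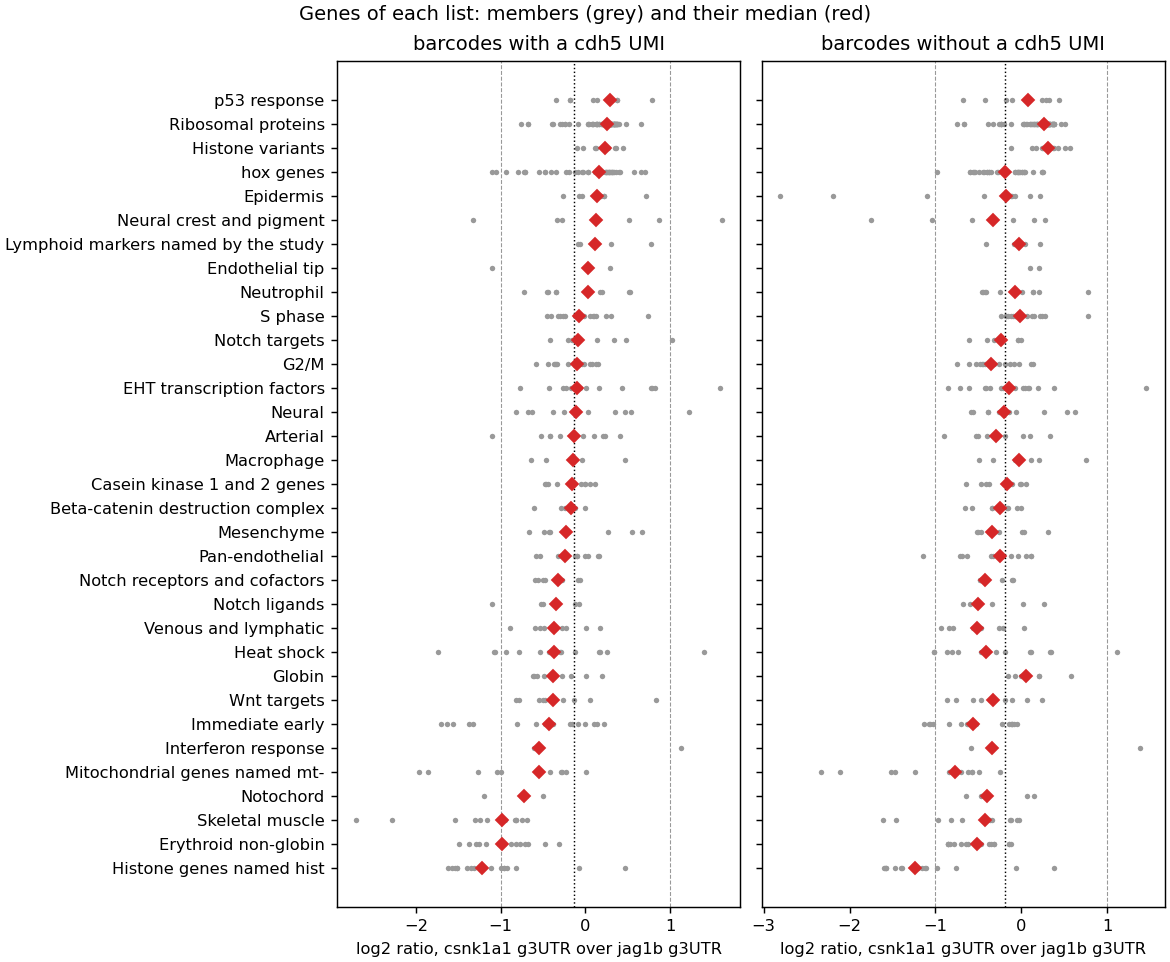
Log2 ratio of csnk1a1 g3UTR over jag1b g3UTR (x axis) for the compared members of each gene list (grey points) with the list median (red diamonds, lists of 3 or more compared), in barcodes with cdh5 (left) and without (right); dotted lines mark the median of all genes and dashed lines 2-fold. The histone list, added after seeing the data, has the lowest median in both panels, -1.22 and -1.23.

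A few genes with no role annotated in the files lay far apart in both fractions. CABZ01079276.1 was found in 4.39% of csnk1a1 g3UTR and 19.6% of jag1b g3UTR barcodes with cdh5, with 8.30 and 6.35 UMIs per barcode that had any. Its level was 44.0 and 208 CPM there, 4.73 times higher in jag1b g3UTR (4.54 to 4.93), and 19.1 and 151 CPM without cdh5, 7.90 times higher (7.04 to 8.88). After thinning to 2500 UMIs the shares with cdh5 were 3.58% (3.15 to 4.04) and 18.4% (17.5 to 19.3). In the wild type and the miR-128 mutant it was at 327 and 23.8 CPM with cdh5.

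LOC100330864 went the opposite way. It gave 566 UMIs in 216 csnk1a1 g3UTR barcodes with cdh5 and 18 UMIs in 17 jag1b g3UTR barcodes, or 9.33 and 0.316 CPM, a ratio of 29.6 (18.5 to 50.2). Without cdh5 it was 11.1 and 0.401 CPM, a ratio of 27.7 (11.7 to 86.4). Its level in csnk1a1 g3UTR was 14.6 CPM in arterial, 6.51 in other cdh5, 8.28 in myeloid and 19.8 in globin-rich barcodes. It was under 1 CPM in all 4 groups of jag1b g3UTR. The wild type and the miR-128 mutant, which have neither edit, held it at 4.15 and 0.23 CPM with cdh5. LOC108182459 was 6.76 times higher in jag1b g3UTR with cdh5 (5.63 to 8.18), at 2.21 and 14.9 CPM, and 0.774 and 10.8 CPM without. It was at 11.4 CPM in the wild type and 2.40 CPM in the miR-128 mutant with cdh5. LOC564610, one of the genes furthest out, stood at 3.10 and 24.7 CPM with cdh5, 7.98 times higher in jag1b g3UTR (6.85 to 9.34), and at 4.81 and 36.1 CPM without. Its levels in the wild type and the miR-128 mutant were 1.24 and 1.09 CPM with cdh5.

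**Figure D4:**
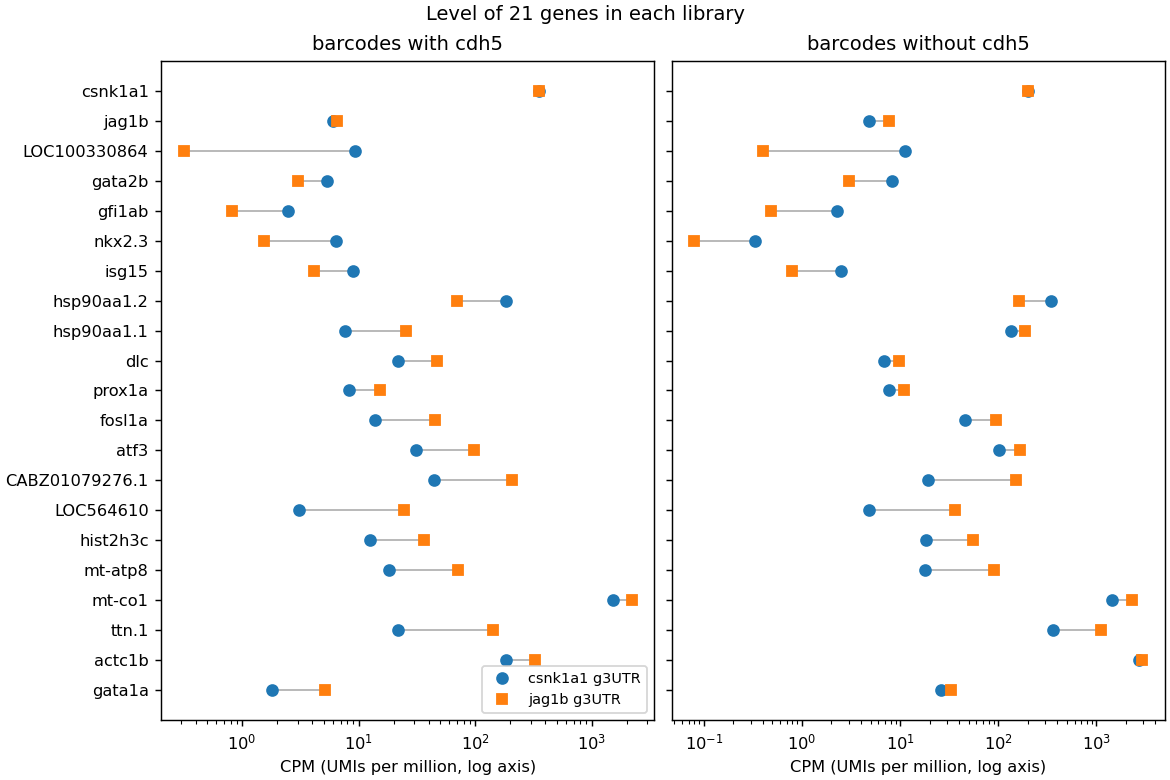
CPM (x axis, log scale) of 21 genes in csnk1a1 g3UTR (blue circles) and jag1b g3UTR (orange squares), in barcodes with cdh5 (left) and without (right), 1 library each; gfi1ab, nkx2.3 and isg15 had under 100 UMIs without cdh5 and were not compared there. Csnk1a1 overlaps at 355.8 and 355.9 CPM, while LOC100330864 and CABZ01079276.1 are far apart in opposite directions.

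Notch ligands and receptors lay mostly below the median gene, and dlc was the ligand past 2-fold with cdh5. Among ligands, 1 of 7 compared with cdh5 passed 2-fold, and none of 7 without, and the list medians were -0.35 with cdh5 and -0.51 without, the latter turning to 0.12 after thinning to 2500 UMIs. The 4.45% of all genes higher in jag1b g3UTR with cdh5 is the background of this count. Dlc, a Delta ligand, stood at 21.9 and 47.1 CPM with cdh5, 2.15 times higher in jag1b g3UTR (2.01 to 2.29). Its log2 ratio was -1.10 beside -0.14 for the median gene, so dlc was within 2-fold when scaled to that gene. In barcodes with more arterial than venous marker UMIs it was 36.0 and 88.1 CPM, and in the other barcodes with cdh5 14.4 and 28.2 CPM. Dlc is itself among the arterial markers used to choose these barcodes, so its levels in them are partly fixed by that choice. Dll4, the main arterial Delta ligand, gave 166 and 240 CPM, 1.44 times higher in jag1b g3UTR. None of the 9 receptors and cofactors passed 2-fold in either fraction, with medians of -0.32 and -0.43. The longest group of all genes had medians of -0.36 and -0.48, and the part of gene length in the Notch medians was not tested.

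The Notch target genes were mixed. Of 9 targets compared with cdh5, 1 passed, against 0.69% of all genes in the same direction. It was heyl, a Hey-family repressor, at 1.57 and 0.771 CPM, 2.03 times higher in csnk1a1 g3UTR (1.41 to 2.97). Her6 was 1.39 times higher in csnk1a1 g3UTR, at 65.0 and 46.8 CPM, and hey2, at 33.3 and 44.6 CPM, was higher in jag1b g3UTR. The list median was -0.09 with cdh5 and turned to 0.05 when each library was scaled to its median gene. In arterial barcodes it was -0.37, beside -0.49 for the ligands and -0.42 for the receptors, and in the other barcodes with cdh5 it was 0.03. Hey2, dlc and dll4 are among the markers that chose arterial barcodes. The target and ligand medians in these groups are thus partly fixed by that choice. Without cdh5 none of 7 passed, with a median of -0.24.

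None of 11 Wnt target genes passed 2-fold in either fraction. With cdh5 their median was -0.39, below the median gene, and 8 of 11 lay below it. Ccnd1, cyclin D1, gave 38.8 and 68.4 CPM, 1.76 times higher in jag1b g3UTR (1.67 to 1.85). Axin2, a feedback inhibitor of the pathway, gave 2.82 and 4.84 CPM, 1.72 times higher (1.41 to 2.09). The caudal homeobox gene cdx4 went the other way, 1.78 times higher in csnk1a1 g3UTR (1.57 to 2.02), at 11.9 and 6.70 CPM. Among the 8 destruction complex genes none passed, and the lowest ratio with cdh5 was that of apc, the scaffold of the complex, at 262 and 401 CPM. Of the 11 casein kinase 1 and 2 genes none passed, with medians of -0.16 with cdh5 and of -0.17 without, the latter turning to 0.02 when scaled to the median gene.

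Transcription factors of the EHT, several of which the study picked as markers on these samples, were split. With cdh5, 1 of 17 passed 2-fold and 10 lay above the median gene, and without cdh5 1 of 16 and 8. Each pass was higher in csnk1a1 g3UTR, against 0.69% and 0.708% of all genes. The medians were -0.10 and -0.14, and both turned to 0.04 when each library was scaled to its median gene. Gfi1ab, a repressor that turns off the endothelial programme in haemogenic cells, stood at 2.49 CPM (151 UMIs in 80 barcodes) in csnk1a1 g3UTR, against 0.824 CPM (47 UMIs in 36 barcodes) in jag1b g3UTR, 3.02 times higher in the former (2.16 to 4.28). Gata2b, which marks haemogenic endothelium, was 1.77 times higher with cdh5 (1.46 to 2.14), at 5.32 and 3.02 CPM, and 2.74 times higher without (1.91 to 4.02), at 8.35 and 3.04 CPM. The paralogue gfi1aa and the lymphoid factor gene ikzf1 were 1.72 and 1.71 times higher with cdh5, and 1.15 and 1.03 times without. Runx1, which is required for the transition, was level with cdh5, at 7.78 and 7.75 CPM (ratio 1.004, 0.880 to 1.15).

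Where these factors were read changed some of the values. In barcodes with cdh5 that held under 1% globin, under 5 myeloid marker UMIs and under 50 muscle marker UMIs, gata2b was at 3.62 and 2.97 CPM (ratio 1.22, 0.954 to 1.56) and myb at 8.42 and 8.56 CPM, whereas over all barcodes with cdh5 myb gave 24.5 and 18.1 CPM. Gfi1ab remained 2.15 times higher in csnk1a1 g3UTR there (1.41 to 3.35), from 65 and 35 UMIs. Such barcodes were 73.6% of those with cdh5 in csnk1a1 g3UTR against 84.5% in jag1b g3UTR, at median depths of 6755 and 5374 UMIs. This group was set after seeing the data. The part of other cells in these ratios was not tested.

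Nkx2.3, a homeobox gene, was among the genes furthest towards csnk1a1 g3UTR with cdh5. It gave 390 UMIs in 216 barcodes against 88 UMIs in 75, or 6.43 and 1.54 CPM, 4.17 times higher (3.30 to 5.31). The gap lay mainly in arterial barcodes, at 14.4 and 2.78 CPM, with 2.17 and 0.972 CPM in the others. Thinned to 2500 UMIs, 1.03% (0.80 to 1.29) and 0.392% (0.267 to 0.556) of the barcodes with cdh5 carried it, and unthinned 2.94% and 0.785%. The tight-junction gene cldn11a was 3.81 times higher with cdh5 (2.67 to 5.56), from 158 and 39 UMIs, and isg15, an interferon-induced ubiquitin-like gene, was 2.18 times higher (1.87 to 2.55). Isg15 was the 1 of 3 interferon-response genes compared with cdh5 that passed, against 0.69% of all genes. The list median went the other way, at -0.54, with summed levels of 43.2 and 55.4 CPM. At 20 UMIs a gene that median turned to 0.29. Without cdh5, 1 of 3 compared genes of the list was also higher in csnk1a1 g3UTR, at a log2 ratio of 1.38, against 0.708% of all genes. The list median there was -0.34, turning to 0.52 at 20 UMIs a gene. Rxfp2a, a relaxin-family receptor gene, was nearly confined to 1 library in the barcodes with cdh5, with 106 UMIs against 3, a ratio of 33.2 (11.1 to 164).

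Endothelial identity genes mostly stayed within 2-fold. Cdh5 itself, which defined the fraction and is given as a description, stood at 1362 and 2103 CPM. None of 16 pan-endothelial genes passed 2-fold with cdh5, with a median of -0.24, and the arterial list, of which only dlc passed, had a median of -0.13 that turned to 0.01 when scaled to the median gene. All 9 venous and lymphatic genes stayed within 2-fold, but 7 lay below the median gene and the list median was -0.37. Stab2, a scavenger receptor gene of venous endothelium, gave 1351 and 2035 CPM with cdh5, 1.51 times higher in jag1b g3UTR (1.49 to 1.52). Prox1a, the regulator of lymphatic identity, was 1.85 times higher (1.65 to 2.07), from 497 and 863 UMIs. Of 3 endothelial tip genes compared with cdh5, 1 passed, against 4.45% of all genes in the same direction. It was the netrin receptor gene unc5b, 2.15 times higher in jag1b g3UTR (1.77 to 2.61). Its log2 ratio was -1.10, which like that of dlc was within 2-fold when scaled to the median gene. Cldn5b, an arterial claudin, was 1.32 times higher in csnk1a1 g3UTR. Arterial markers exceeded venous ones in 33.4% of csnk1a1 g3UTR barcodes with cdh5 (32.3 to 34.5) and 30.2% of jag1b g3UTR ones (29.3 to 31.2). Ties counted as not arterial, and 316 and 567 barcodes lay within 1 marker UMI of a tie. Median depths with cdh5 were 7488 and 5606 UMIs, and the part of depth in this share was not tested.

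Immediate early genes, which respond within minutes to growth factors, stress or handling, were in part higher in jag1b g3UTR. With cdh5, 5 of 16 passed 2-fold, all in that direction, and without cdh5 4 of 17, against 4.45% and 3.52% of all genes. Fosl1a stood at 13.8 and 44.9 CPM with cdh5, 3.25 times higher (3.01 to 3.52). Atf3 gave 31.3 and 97.2 CPM, fosb 14.7 and 43.4 CPM, and jund 33.2 and 86.5 CPM. The family did not move as one, since jun was 1.17 times higher in csnk1a1 g3UTR, junba gave 73.2 CPM in both and fosab 63.9 and 71.4 CPM. In myeloid barcodes none of 16 passed and the list median was 0.03.

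Heat-shock genes were split as well. With cdh5, 3 of 15 were 2-fold higher in jag1b g3UTR and 1 in csnk1a1 g3UTR, against 4.45% and 0.69% of all genes. The last was hsp90aa1.2, an Hsp90 chaperone gene, at 184 and 69.9 CPM, 2.63 times higher in csnk1a1 g3UTR (2.54 to 2.73) and 2.16 times without cdh5. Its tandem near copy hsp90aa1.1, a muscle chaperone gene, went the other way, at 7.66 and 25.6 CPM with cdh5, and reads that fit both copies are assigned with uncertainty. In muscle barcodes hsp90aa1.1 was at 1577 and 1761 CPM.

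Titin and myosin transcripts of muscle lay far apart in both fractions. All 13 skeletal muscle genes lay below the median gene with cdh5 and 6 passed 2-fold, all higher in jag1b g3UTR, with a median of -0.99, against 4.45% of all genes. In arterial barcodes 10 of 11 passed, with a median of -2.27, against 3.87% of all genes there. In the other barcodes with cdh5 it was 2 of 11, with a median of -0.53, against 3.54%. Without cdh5 2 of 13 passed, against 3.52%, with a median of -0.42. Ttn.1, which encodes the giant sarcomere protein titin, stood at 21.8 and 143 CPM with cdh5, 6.57 times higher in jag1b g3UTR (6.20 to 6.97). Without cdh5 it was at 363 and 1110 CPM, 3.06 times higher (2.97 to 3.15). Myhz1.3, a fast myosin heavy chain gene, was 8.71 times higher with cdh5, at 5.64 and 49.1 CPM. Alpha-actin actc1b and creatine kinase ckma, by contrast, were 1.77 and 1.69 times higher with cdh5 but only 1.09 and 1.02 times without.

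Barcodes with at least 50 UMIs of the muscle list, titin left out, were 1.17% (0.96 to 1.41) of csnk1a1 g3UTR and 1.44% (1.23 to 1.67) of jag1b g3UTR barcodes. Inside them the list median was 0.03 and 2 of 13 genes were past 2-fold, ttn.1 and ttn.2, against 4.25% of all genes there. All listed genes but titin were used to choose these barcodes. Their agreement inside the group is thus partly fixed by that choice and does not show that the list difference was absent. For every 100 actc1b UMIs these barcodes held 12.7 ttn.1 UMIs in csnk1a1 g3UTR against 36.3 in jag1b g3UTR. Their median depths were 15596 and 9350 UMIs, and 7 and 54 barcodes lay near the limit of 50, on either side. The muscle groups of the libraries were thus not alike, and the part of this in their levels was not tested. The muscle barcodes included 20 with a cdh5 UMI in csnk1a1 g3UTR against 73 in jag1b g3UTR, and the summed muscle level with cdh5 was 432 and 1029 CPM. With barcodes of at least 50 muscle UMIs left out, 8 of 11 muscle genes still passed with cdh5, against 3.72% of all genes there, at summed levels of 56.9 and 167 CPM. The part of muscle RNA in the barcodes with cdh5 was not tested.

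Erythroid genes other than globins followed in the barcodes with cdh5. All 17 lay below the median gene there and 7 passed 2-fold, higher in jag1b g3UTR, against 4.45% of all genes, with a median of -0.99. Gata1a, the master factor of red cells, stood at 1.81 and 5.12 CPM, 2.82 times higher (2.26 to 3.55), and the transferrin receptor gene tfr1a at 20.9 and 54.2 CPM. Without cdh5 none passed and the median was -0.52. In barcodes with cdh5 and few globin, myeloid and muscle UMIs, gata1a was 0.814 and 0.860 CPM and 2 of 11 genes passed, against 3.28% of all genes there. Low globin was used to choose these barcodes, so the erythroid values inside them are partly fixed by that choice. None of the 9 globin genes compared passed in either whole fraction. In arterial barcodes 6 of 9 were 2-fold higher in jag1b g3UTR, against 3.87% of all genes there, at summed levels of 800.0 and 2002 CPM. In myeloid barcodes without cdh5 it was 4 of 9, against 2.46% of all genes there. Globin-rich barcodes (10% of UMIs or more) were 7.41% (6.29 to 8.66) and 8.83% (7.58 to 10.2) of those without cdh5.

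Myeloid genes stayed within 2-fold. None of 12 neutrophil genes passed in either fraction, nor did any of 5 macrophage genes with cdh5 and 8 without. The neutrophil median with cdh5 was 0.03, but -0.82 after thinning to 2500 UMIs and -0.53 with the mean of barcode CPM. Lyz, lysozyme, gave 16747 and 15201 CPM without cdh5. Barcodes without cdh5 that carried at least 5 neutrophil or macrophage marker UMIs were 37.4% (35.2 to 39.6) in csnk1a1 g3UTR against 29.9% (27.8 to 32.0) in jag1b g3UTR. Their median depths were 12481 and 10154 UMIs, against 8679 and 5761 over the whole fraction, and the part of depth in this share was not tested.

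Several of the largest ratios rested on a handful of barcodes. Il6 gave 175 and 17 UMIs with cdh5, of which 10 csnk1a1 g3UTR barcodes held 94.3%, and pvalb8, a parvalbumin gene, gave 893 UMIs in 7 barcodes against 63 in 4 without cdh5. Without cdh5, the pronephric cadherin gene cdh17 was 3.61 times higher in csnk1a1 g3UTR from 13 barcodes against 11, and hamp, which encodes hepcidin, 6.82 times from 26 against 14. In the other direction, the envoplakin gene evpla, a surface-epidermis gene, was 12.6 times higher in jag1b g3UTR from 20 and 56 barcodes. With genes left out whose 10 richest barcodes held over 50% of their UMIs in the higher library, an alternative added after seeing the data, 41 of the 85 genes higher in csnk1a1 g3UTR without cdh5 remained, and 83 of 104 with cdh5.

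**Figure D5:**
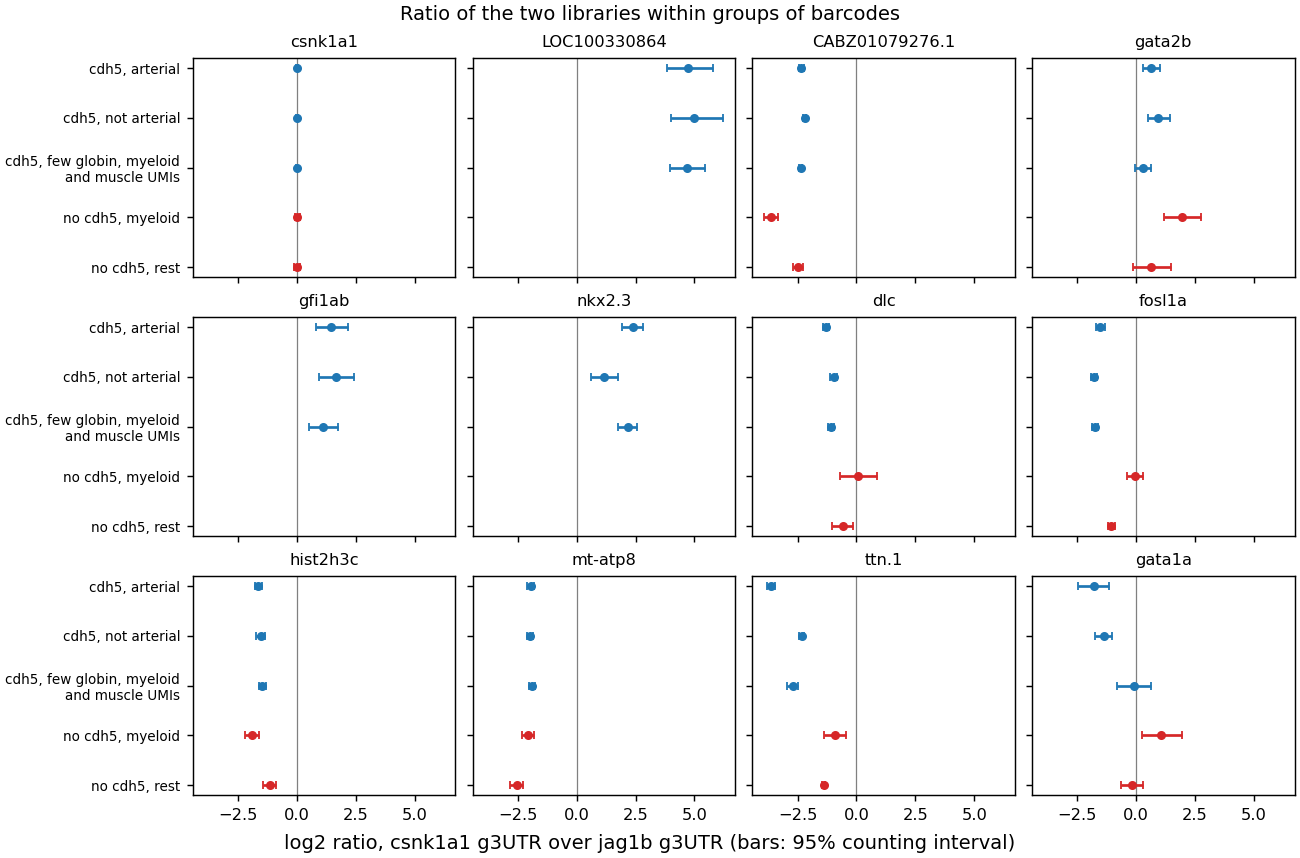
Log2 ratio of csnk1a1 g3UTR over jag1b g3UTR (x axis; bars, 95% counting interval) of 12 genes in 3 groups of barcodes with cdh5 (blue) and 2 without (red); a group with under 5 UMIs in either library is not drawn. Csnk1a1 lies close to 0 in each group, while hist2h3c and mt-atp8 lie below 0 in each and gata1a only in some.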

How the data were processed

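Single-cell 3′ libraries of the csnk1a1 g3UTR and jag1b g3UTR samples were used, 1 library each. The deposited matrices hold UMI counts per gene and barcode, made by the authors with Cell Ranger 6.0.1 (per the file headers) on an annotation with corrected 3′ ends. The genome build was not given in the sources used here. The 36351 rows were summed to 36109 symbols. Barcodes under 200 genes (57 and 45) or over 35000 UMIs (30 and 9) were left out, leaving 78765464 and 69524059 UMIs. Counts were summed over barcodes with and without cdh5 and set per 1000000 UMIs (CPM). A gene was compared at 100 or more UMIs over both libraries and called at 2-fold; a library at 0 was set to a floor of 3 counts. Intervals are exact conditional binomial (ratios) or Clopper-Pearson (shares), at 95%. With 1 library a group, no test across samples exists. Doublets were kept; Scrublet's top scores were left out as an alternative. Gene spans and order came from RefSeq (GRCz12tu), used for lengths and neighbours only.

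Genes named are the 12 with the largest ratio each way in each fraction, the 10 furthest each way in both fractions, list members, and csnk1a1, jag1b, the host genes, cdh5 and kdrl. The comparison and 33 of the lists were chosen with earlier results of these data known; 2 histone lists and the muscle and few-globin groups were added after seeing these files. The method was tested on simulated counts, drawn independently for each gene with planted changes larger than 2-fold. They held no library effect and no gathering of UMIs in few barcodes. They therefore do not show how calls at 2-fold between single libraries behave. Python 3.11.15, scipy 1.17.1 and pandas 2.3.3 were used. No sequences are shown, as the reference used here held none.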

Additional observations from a re-analysis of the deposited data

Results flagged for a closer look

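Among the 11429 genes compared in both fractions, 1 passed 2-fold in opposite directions. Tac1, a tachykinin neuropeptide gene outside the rule for named genes, was named after its values were seen. With cdh5 its ratio of csnk1a1 g3UTR over jag1b g3UTR was 0.442 (0.296 to 0.652), from 40 and 85 UMIs in 40 and 78 barcodes. Without cdh5 the ratio was 2.045 (1.31 to 3.29), from 80 and 27 UMIs in 21 and 11 barcodes, where the 10 richest barcodes held 86.2% of the csnk1a1 g3UTR UMIs. The difference between the fractions was not tested.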

How the results depend on the processing

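No paired analysis was possible because each group is 1 library and the result comes from no test; for the same reason no replicate could be left out. With each library scaled to its median gene, 169 and 129 genes were higher in csnk1a1 g3UTR with and without cdh5, 202 were higher in jag1b g3UTR without cdh5, 37 and 89 were called in both fractions, 10 list members were higher in jag1b g3UTR without cdh5, and csnk1a1 stood at 1.101 and 1.13. Thinned to 2500 UMIs before the cdh5 split, which left out 933 and 2216 barcodes, 55 and 313 genes passed with cdh5. Without it, 131 genes and, counted over the lists, 20 list members were higher in csnk1a1 g3UTR. In both fractions 3 and 82 were called, csnk1a1 was at 1.08 without cdh5, and 74.9% of csnk1a1 g3UTR barcodes had cdh5. Many of these calls were of other genes. Of the main calls with cdh5, 31 of 104 and 193 of 671 recurred, and without it 18 of 85 and 115 of 422. Fewer genes were compared after thinning, 11353 with cdh5 and 7249 without. In that setting jag1b could not be compared without cdh5, and the pan-endothelial median there turned from -0.25 to 1.0005. The venous and lymphatic median without cdh5 turned from -0.51 to 1.02, and the arterial one from -0.29 to 0.43. The endothelial values without cdh5 thus depend on depth and on the split. At 20 UMIs a gene, 344 and 1849 passed with cdh5, 371 and 1178 without, 82 and 375 in both, and 10 list members were higher in csnk1a1 g3UTR in each fraction. With the mean of barcode CPM, 134 genes and 3 list members were higher in csnk1a1 g3UTR without cdh5, 49 list members were higher in jag1b g3UTR with cdh5, 14 were called in both, and si:ch211-139a5.9 without cdh5 turned to 0.996. At 2 cdh5 UMIs or more the shares were 74.0% and 77.4%. The next 3 alternatives were chosen after seeing the data. Centring within 10 groups of length gave 392 genes higher in jag1b g3UTR with cdh5 and 160 without, of which 343 and 144 were main calls. It covered the 13054 and 10984 compared genes with a RefSeq span. Leaving out genes held by few barcodes left 41 higher in csnk1a1 g3UTR without cdh5. Barcodes with cdh5 and few globin, myeloid and muscle UMIs gave 91 and 449. Of the values of the main results under all alternatives, 96 moved little and 33 moved. Leaving out 691 and 1045 Scrublet doublets, or globin from the total, moved none of the counts by over 1.5 times. Causes were not tested.

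The comparison holds 1 library a group, and counting intervals do not cover the spread between embryos, pools or captures. Depth differed, at medians of 7488 and 5606 UMIs with cdh5. Genes under 100 UMIs were not compared. A comparison of the lengths of the genes called in both fractions is void, since 109 of 151 and 15 of 22 had a RefSeq span, under the 80% set as the minimum.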
